A study of Rattus norvegicus with 74 samples.

Results

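The genes described here make cholesterol, sense it, take it up, move it between compartments and esterify it. The list held 30 genes of these functions and was chosen with earlier results of these data known. Counts over it are therefore descriptions. Of these, 27 had a probe set with a single gene symbol and were measured, out of 14217 genes measured on the array. Where a gene had several such probe sets, the brightest on average stood for it. Hmgcs1, Npc1 and Soat2 had no single-gene probe set and were not analysed here. The 27 genes comprise 7 of the mevalonate and isoprenoid steps, 3 of the squalene and lanosterol steps, 8 that convert lanosterol to cholesterol, 4 of the SREBP2 control circuit and 5 of uptake, transport and esterification.

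Cholesterol is built from acetyl-CoA through mevalonate, isoprenoid diphosphates, squalene and lanosterol, and liver is a main site of this synthesis. When sterols in the endoplasmic reticulum run low, the escort protein SCAP carries the membrane-bound factor SREBP2 to the Golgi, where proteases release its active part, which raises transcription of nearly the whole set of enzymes. When sterols are plentiful, INSIG1 and INSIG2 hold SCAP and SREBP2 back.

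Liver RNA of Wistar Han rats (Crl:WI (Han)) was measured on 74 Affymetrix arrays, 1 per labelled rat, after daily oral gavage, with tissue taken on postnatal day 22. Phenobarbital, a barbiturate that activates the receptor CAR, was given at 0, 5 or 45 mg/kg, and PCB126, a dioxin-like polychlorinated biphenyl, at 0, 10, 50 or 250 mg/kg as labelled. PBDE-47, a single brominated diphenyl ether congener, and DE-71, a commercial mixture of such ethers used as a flame retardant, were each given at 0.1, 15 and 50 mg/kg beside a 0 mg/kg group. For the latter agents dams were dosed on gestation days 6 to 21 and pups on postnatal days 12 to 21, while the schedule of phenobarbital and PCB126 is not given separately in the sources used here. All groups share the strain, the age at collection and the route, and each agent has its own 0 mg/kg group. The labels give neither sex nor litter, so the p-values measure only the spread between these samples.

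Each group had 5 arrays, except DE-71 at 50 mg/kg with 4. Array medians lay between 6.13 and 6.44 log2 units. Replicates 3 and 4 of PBDE-47 at 0 mg/kg were nearly identical, as were replicates 1 and 2 of DE-71 at 15 mg/kg (root mean square differences of 0.162 and 0.202 over 300 variable genes, against 0.531 for the next closest pair of an agent). Each of these pairs was averaged and counted as 1 sample, which leaves 72 samples and 4 in each of those groups. Also nearly identical were PBDE-47 replicate 3 at 15 mg/kg and replicate 3 at 50 mg/kg (0.105), and DE-71 replicate 5 at 15 mg/kg and replicate 4 at 50 mg/kg (0.124). These carry different dose labels and were kept, and the differences of the means and the called genes that rest on them are given below also without them.

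The promoters of 5 of the 7 genes that changed are shown because SREBP2 is known to act beside the factor NF-Y, whose box is CCAAT. Of the others, Scarb1 had no matched promoter, and that of Lcat, with 1 box, is not shown. Promoter sequences from RefSeq (build GRCr8) were matched to 22 of the 27 measured genes. Where several were listed for a gene, the first of full length was used and the others were not searched. The sequences run 5′ to 3′ over the 250 bases before the annotated start, and capitals mark CCAAT or its reverse complement ATTGG. They lie at chr16:29746863-29747112 on the plus strand for Msmo1, at chr8:51538278-51538527 on the minus strand for Sc5d, at chr17:66547525-66547774 on the minus strand for Idi1, at chr13:35040099-35040348 on the minus strand for Insig2 and at chr8:119184188-119184437 on the plus strand for Scap.
Msmo1: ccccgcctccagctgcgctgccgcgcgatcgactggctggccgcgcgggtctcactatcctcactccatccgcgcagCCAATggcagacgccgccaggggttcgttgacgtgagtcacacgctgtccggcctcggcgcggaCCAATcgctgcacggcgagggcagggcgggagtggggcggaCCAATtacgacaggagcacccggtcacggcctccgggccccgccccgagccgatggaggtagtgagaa
Sc5d: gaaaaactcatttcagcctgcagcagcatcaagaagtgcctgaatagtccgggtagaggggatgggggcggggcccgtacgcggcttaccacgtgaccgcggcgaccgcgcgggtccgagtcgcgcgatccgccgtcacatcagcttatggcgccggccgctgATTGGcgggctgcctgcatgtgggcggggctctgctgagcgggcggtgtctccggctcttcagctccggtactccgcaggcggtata
Idi1: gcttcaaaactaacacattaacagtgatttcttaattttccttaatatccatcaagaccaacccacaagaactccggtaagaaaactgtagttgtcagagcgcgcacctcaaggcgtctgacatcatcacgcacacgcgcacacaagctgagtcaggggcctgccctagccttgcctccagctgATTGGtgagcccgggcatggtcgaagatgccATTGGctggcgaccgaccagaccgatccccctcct
Insig2: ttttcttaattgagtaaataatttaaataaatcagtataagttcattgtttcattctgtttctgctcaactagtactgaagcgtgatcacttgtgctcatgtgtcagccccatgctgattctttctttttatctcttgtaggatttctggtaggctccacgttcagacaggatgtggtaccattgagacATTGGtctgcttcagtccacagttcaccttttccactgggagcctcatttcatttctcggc
Scap: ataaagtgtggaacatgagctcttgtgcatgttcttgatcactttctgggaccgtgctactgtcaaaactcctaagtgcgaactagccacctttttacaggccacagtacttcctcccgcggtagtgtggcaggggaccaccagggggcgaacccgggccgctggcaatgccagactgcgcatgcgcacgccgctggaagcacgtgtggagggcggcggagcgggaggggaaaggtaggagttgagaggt
The Msmo1 promoter held 3 boxes, at positions -173, -109 and -68 from the start. Idi1 held 2, at -66 and -35, Sc5d held 1 at -87 and Insig2 held 1 at -61. The Scap window held none.

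Over the window from 250 bases before to 50 after the start, CCAAT on either strand was found in 18 of the 22 promoters (81.8%), against 37.3% of the 11733 promoters of genes on the array. Of the 14 synthesis enzymes among the 22, 11 held it, so the box was not particular to the enzymes. The E-box CACGTG, which reads the same on both strands, was found in 3 of 22 (13.6%), those of Sc5d, Insig1 and Scap, against 8.92%. TCACNCCAC, searched on both strands as a sterol response sequence, was found in 0 of 22, against 1.12%. No motif contains another. These are exact matches of letters, which describe the windows and show nothing of binding.

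Averaged over the 27 genes, expression was higher in every rat given 5 mg/kg of phenobarbital than in any of its controls. The mean log2 level per array was 8.8, 8.93, 8.97, 8.99 and 8.83 in the 5 controls and 9.35, 9.67, 9.09, 9.87 and 9.51 at 5 mg/kg. The group means were 8.9 ± 0.08 and 9.5 ± 0.3 (SD, n = 5 each), a difference of 0.59 or 1.51-fold. At 45 mg/kg the arrays stood at 8.85, 9.41, 9.19, 9.44 and 8.79, so that 3 lay above all controls, 1 among them and 1 just below the lowest. Their mean was 9.14 ± 0.31, above the controls by 0.23 and below the 5 mg/kg mean by 0.36 (difference -0.36), and none of the 5 reached the 5 mg/kg mean.

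PBDE-47 gave the other separation of dosed rats from their controls. The control arrays stood at 9.02, 9.03, 9.2 and 9.18, and those at 50 mg/kg at 9.52, 9.27, 9.31, 9.35 and 9.47. The group means were 9.1 ± 0.1 (n = 4) and 9.38 ± 0.11 (n = 5), a difference of 0.28. Without the near-identical array the difference was 0.3 and the ranges were still apart. The 15 mg/kg arrays (9.08, 9.22, 9.31, 9.29 and 9.18, mean 9.22) and the 0.1 mg/kg arrays (9.23, 9.5, 8.81, 9.12 and 9.12, mean 9.15) overlapped the controls.

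In DE-71 the doses did not separate from the controls. Control arrays stood at 9.1, 8.62, 9.02, 8.99 and 8.99, with a mean of 8.94 ± 0.18. The arrays at 0.1 mg/kg spread the most, from 8.42 to 9.47 (9.12, 9.47, 8.42, 9.41 and 9.07). Those at 15 mg/kg stood at 9.36, 9.19, 9.04 and 8.83 and those at 50 mg/kg at 8.8, 9.3, 8.82 and 9.24. Means of 9.09, 9.1 and 9.04 at the rising doses lay 0.15, 0.16 and 0.1 above the control mean. With 1 sample left out these differences ran from 0.06 to 0.32, 0.08 to 0.25 and 0.01 to 0.18. The highest came without replicate 3 at 0.1 mg/kg, replicate 5 at 15 mg/kg and replicate 2 at 50 mg/kg. The lowest came without replicate 2 at 0.1 mg/kg, without control replicate 2 or replicates 1 and 2 at 15 mg/kg, and without replicate 3 at 50 mg/kg. Without the near-identical arrays the 15 and 50 mg/kg differences were 0.25 and 0.17.

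PCB126 was the agent in which the mean stood lower than in the controls at every dose, with overlap throughout. Control arrays stood at 9.06, 9.52, 9.45, 9.61 and 9.31 (mean 9.39 ± 0.22). At 10 mg/kg they stood at 9.45, 9.14, 9.23, 8.93 and 9.52, at 50 mg/kg at 8.9, 9.27, 9.41, 8.58 and 8.94, and at 250 mg/kg at 9.12, 9.21, 8.9, 9.48 and 9.21. The differences from the control mean were -0.13, -0.37 and -0.21, so the middle dose had the lowest mean. With 1 sample left out they ran from -0.21 to -0.05, -0.47 to -0.26 and -0.29 to -0.13. Levels are not set against each other between agents, since the agents look to have been normalized separately.

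**Figure D1:**
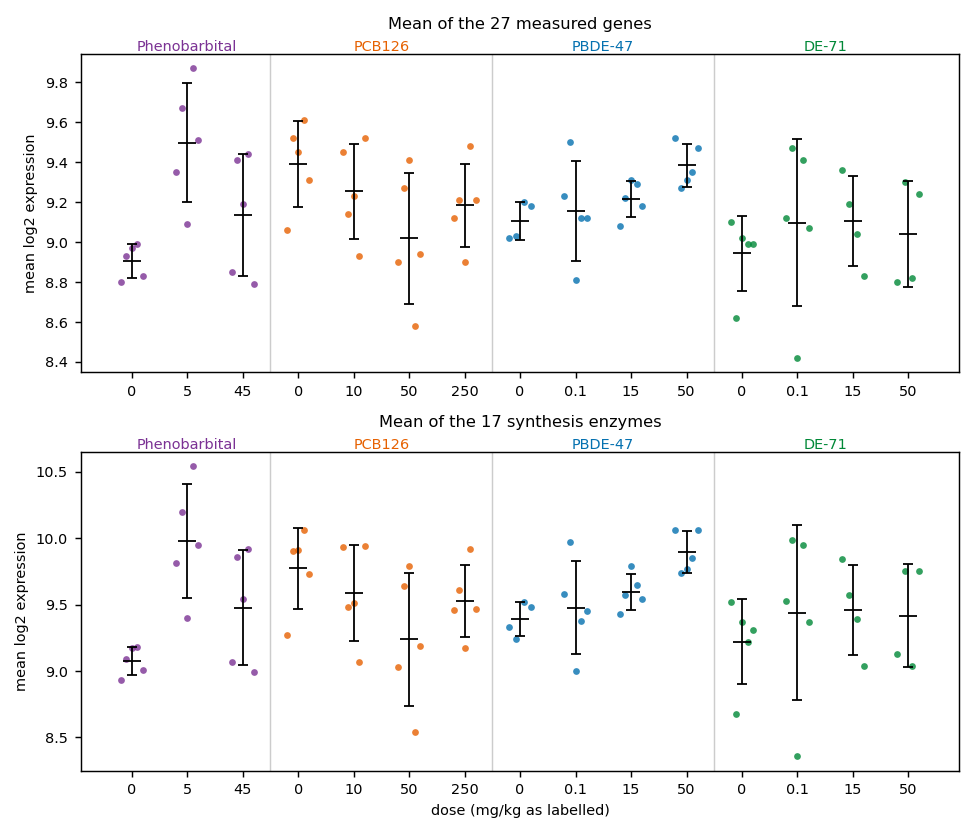
The mean log2 expression per array of the 27 measured genes (top) and of the 17 synthesis enzymes (bottom) is plotted against dose in mg/kg as labelled, with agents side by side. Points are samples, the long bar is the group mean and the whiskers are 1 SD. Ranges are apart from those of the controls for phenobarbital at 5 mg/kg and PBDE-47 at 50 mg/kg.

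The 17 measured enzymes that lead to cholesterol (the synthesis genes without Ggps1, which leads to another isoprenoid) stood farther from their controls than the whole set did at those doses. Their mean was 9.08 ± 0.11 in phenobarbital controls, 9.98 ± 0.43 at 5 mg/kg and 9.48 ± 0.43 at 45 mg/kg. It was 9.39 ± 0.13 in PBDE-47 controls (n = 4) and 9.9 ± 0.16 at 50 mg/kg, a difference of 0.5, or 0.53 without the near-identical array. In PCB126 it was 9.78 ± 0.3, 9.58 ± 0.36, 9.24 ± 0.5 and 9.53 ± 0.27 from 0 to 250 mg/kg. The mean over the 4 control-circuit genes differed from its controls by 0.24 at most (PCB126 at 250 mg/kg, -0.24) over the 11 dose comparisons.

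Each gene was then tested with limma on all 14217 genes, with Benjamini-Hochberg adjustment, and called at an adjusted p below 0.05. At 5 mg/kg of phenobarbital 3 of 27 rose and 0 fell, against 0.106% of all genes called (0.0844% risen and 0.0211% fallen). The genes were Msmo1, Idi1 and Sc5d, all synthesis enzymes. All 17 enzymes stood above their controls (44.7% of all genes did), 16 of them at an unadjusted p below 0.05 (6.59% of all genes), and 11 without overlap between the groups (0.732% of all genes). The median over the 17 was 0.78, against -0.02 over all genes. The enzymes vary together from rat to rat (median r of 0.78 between pairs within groups). Each count over them, here and below, is therefore not a count of independent genes. The count of called genes was 0 without control replicate 1, 5 mg/kg replicate 2 or 5 mg/kg replicate 4, 1 without control replicate 3, and 9 when replicate 3 of the 5 mg/kg group was omitted.

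At 45 mg/kg 3 rose (Msmo1, Sc5d and Insig2) and 3 fell (Scap, Scarb1 and Lcat), against 2.7% of all genes called (1.38% risen and 1.32% fallen). The count of 6 called genes was not kept in any fit with 1 sample left out, where it ran from 4 to 5. Over the other alternatives it ran from 4 to 8. The median over the 17 enzymes was 0.41, against -0.02 over all genes.

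With PBDE-47 at 50 mg/kg 3 rose (Msmo1, Sc5d and Insig2) and 2 fell (Scap and Scarb1), against 4.03% of all genes called (2.35% risen and 1.68% fallen). All 17 enzymes again stood above the controls (45.6% of all genes), and 8 did so without overlap (4.23% of all genes were higher without overlap). Their median was 0.54, against -0.02 over all genes. The count of called genes was 3 without control replicate 1 or 2 or 50 mg/kg replicate 1 or 5. In the same comparison 5 of 8 Kupffer cell and macrophage markers fell, with a median of -0.6, and their mean log2 level ran from 7.8 to 8.3 against 8.42 to 8.96 in the controls. The median of 5 erythroid markers was -0.63, with none called. Their part in these results was not tested.

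At 15 mg/kg of PBDE-47 limma called 0 of 27, against 0.823% of all genes, with 5 at an unadjusted p below 0.05 (11.2% of all genes). Those were Msmo1, Sc5d, Scap, Npc2 and Scarb1. At 0.1 mg/kg it called 0 of 27 and 0.0% of all genes, with 0 members at an unadjusted p below 0.05 (3.21% of all genes).

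With DE-71 the control circuit alone was called. At 15 mg/kg Insig2 rose, 1 of 27 genes, against 1.24% of all genes called. At 50 mg/kg Insig2 rose and Scap fell, 2 of 27 genes (7.41%), a share near the 10.2% of all genes called (4.83% risen and 5.35% fallen). The count was 1 when control replicate 1 or 4 or dosed replicate 2 or 4 was omitted, and when the near-identical arrays were. At 15 mg/kg it was 2 without control replicate 2. At 0.1 mg/kg limma called 0 of 27 and 0.0% of all genes, with 1 member, Sc5d, at an unadjusted p below 0.05 (6.39% of all genes).

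No member was called at any dose of PCB126. At 50 mg/kg limma called 0 of 27, against 0.00703% of all genes, with 10 at an unadjusted p below 0.05 (5.63% of all genes), all of them synthesis enzymes below their controls. At 250 mg/kg it called 0, against 0.0563% of all genes, with 2 at an unadjusted p below 0.05, Lss and Scap (5.82% of all genes). At 10 mg/kg it called 0, against 0.0%, with 0 at an unadjusted p below 0.05 (2.67%). All 17 enzymes had means below the controls at each of the 3 doses, where 46.8%, 49.1% and 46.2% of all genes lay above them at 10, 50 and 250 mg/kg. Their median was -0.14, -0.52 and -0.22. Of 13 measured fatty acid synthesis genes 0 lay above the controls at 50 mg/kg, with a median of -0.53 and none called. The median of those 13 was -0.01 at 10 mg/kg and -0.07 at 250 mg/kg. The dose comparisons of an agent share its control samples, so their shared sign is not independent. Nor are the counts of enzymes, which vary together.

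**Figure D2:**
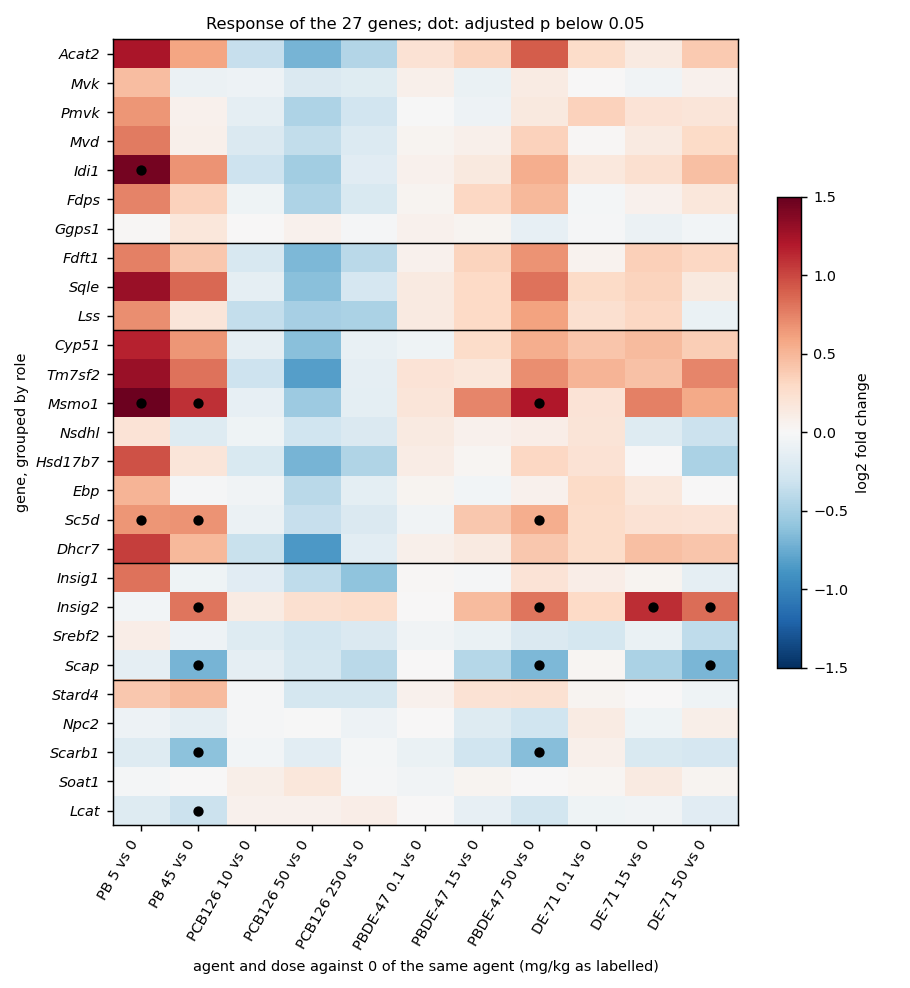
The log2 fold change of each of the 27 genes (vertical, grouped by role and divided by lines) is shown for each dose against the 0 mg/kg group of its agent (horizontal), in red for higher and blue for lower, on a scale from -1.5 to 1.5. A dot marks an adjusted p below 0.05 in limma. Synthesis enzymes are red at 5 mg/kg of phenobarbital and blue at 50 mg/kg of PCB126, and Insig2 is red and Scap blue at the top doses of phenobarbital, PBDE-47 and DE-71.

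Of the mevalonate and isoprenoid enzymes, Idi1, which makes the reactive isoprenoid unit dimethylallyl diphosphate, rose at 5 mg/kg of phenobarbital. Its log2 level was 8.92, 9.4, 9.34, 9.68 and 9.19 in the controls and 10.46, 10.95, 10.03, 11.46 and 10.83 at 5 mg/kg. The highest control lay below the lowest dosed rat, and the rise was 2.72-fold (log2 1.44, SE 0.32, adjusted p = 0.037). Its other probe set moved by 1.42. The call was not kept without control replicate 1, 2, 3 or 5 (0.16, 0.06, 0.057 and 0.1) or without 5 mg/kg replicate 2, 4 or 5 (0.12, 0.23 and 0.077).

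At 45 mg/kg Idi1 stood at 9.62, 10.39, 10.21, 10.48 and 9.2, overlapping the controls, with a difference of 0.67 (95% confidence interval 0.04 to 1.31) that was not called. Acat2, the cytosolic thiolase that makes acetoacetyl-CoA, differed by 1.23 at 5 mg/kg (interval 0.58 to 1.88, adjusted p = 0.152) without overlap, from 7.8 ± 0.21 to 9.03 ± 0.62. The mevalonate decarboxylase gene Mvd differed by 0.78, the farnesyl diphosphate synthase gene Fdps by 0.74, the phosphomevalonate kinase gene Pmvk by 0.66 and the mevalonate kinase gene Mvk by 0.46. None of the latter was called. Ggps1, whose product makes geranylgeranyl diphosphate for protein prenylation, lay apart, with differences between -0.12 and 0.17 in all 11 dose comparisons. Its signal was dim (mean log2 5.17, above 35.1% of genes). A probe set of nearly the same brightness (4.99) ran from -0.2 to 0.42, and the dimmest (4.45) from -0.14 to 0.23.

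With PBDE-47 at 50 mg/kg the mean of the 7 genes was 8.69 ± 0.15 against 8.35 ± 0.1, and the ranges were apart. Acat2 differed by 0.91 (interval 0.22 to 1.6) and Fdps by 0.49 without overlap, and Idi1 by 0.54, none of them called. The probe sets of Mvk were not in step at 5 mg/kg of phenobarbital, where the others stood at 0.81 and, for a dim probe set, at -0.09.

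The 3 enzymes from farnesyl diphosphate to lanosterol were not called in any comparison, although their groups were apart in places. Sqle, the squalene epoxidase gene, stood at 7.87 ± 0.14 in phenobarbital controls, 9.17 ± 0.45 at 5 mg/kg and 8.73 ± 0.56 at 45 mg/kg. Neither dose overlapped the controls, and the differences were 1.3 (SE 0.33, adjusted p = 0.098) and 0.86. Without 5 mg/kg replicate 3, the array with the lowest module mean of its group, Sqle differed by 1.47 (adjusted p = 0.046), and with only the phenobarbital arrays in the fit its adjusted p was 0.035.

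At 50 mg/kg of PBDE-47 all 3 stood above every control. Fdft1, the squalene synthase gene, differed by 0.67 (interval 0.24 to 1.11, adjusted p = 0.061), Sqle by 0.81 and the lanosterol synthase gene Lss by 0.6. With only the PBDE-47 arrays in the fit, Fdft1 and Sqle were called (adjusted p = 0.0059 and 0.047), as was Acat2 (0.019). At the same dose of DE-71 the differences were 0.31 for Fdft1, 0.15 for Sqle and -0.1 for Lss. The other probe sets of Fdft1 and Lss moved by 0.17 and 0.32 there.

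Among the 8 genes from lanosterol to cholesterol, Msmo1 had the largest fold change of all 27 genes at 5 mg/kg of phenobarbital and at 50 mg/kg of PBDE-47. It encodes the methylsterol monooxygenase that starts removal of a pair of methyl groups from the sterol ring. Its log2 level was 9.19, 9.72, 9.47, 10.06 and 9.65 in phenobarbital controls, 11.05, 11.25, 10.3, 11.69 and 11.16 at 5 mg/kg, and 9.94, 11.12, 10.97, 11.37 and 10.21 at 45 mg/kg. The 5 mg/kg rats all lay above the controls, and at 45 mg/kg 1 rat, replicate 1, lay within their range. The rise was 2.77-fold at 5 mg/kg (log2 1.47, SE 0.31, adjusted p = 0.017) and 2.14-fold at 45 mg/kg (1.1, SE 0.31, adjusted p = 0.031).

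The Msmo1 call at 5 mg/kg was not kept without control replicate 1 or 3 (0.13 and 0.056) or 5 mg/kg replicate 2 or 4 (0.1 and 0.14). At 45 mg/kg it was not kept without control replicate 1, 2, 3 or 5 (0.11, 0.052, 0.07 and 0.055) or 45 mg/kg replicate 2, 3 or 4 (0.11, 0.081 and 0.12). Over all fits with 1 sample left out the Msmo1 difference lay between 1.32 and 1.67 at 5 mg/kg and between 0.94 and 1.29 at 45 mg/kg.

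With PBDE-47, Msmo1 stood at 9.72, 9.86, 10.28 and 10.17 in the controls, 10.44, 10.72, 11.12, 10.86 and 10.56 at 15 mg/kg, and 11.38, 11.04, 11.04, 11.12 and 11.46 at 50 mg/kg. Every rat at the higher doses lay above every control. At 50 mg/kg it rose 2.29-fold (1.2, SE 0.33, adjusted p = 0.02), and 1.24 without the arrays near-identical to another group (adjusted p = 0.029). The 15 mg/kg difference of 0.73 (interval 0.08 to 1.38) was not called. The 50 mg/kg call was not kept without control replicate 1 or 2 (0.081 and 0.062) or 50 mg/kg replicate 1 or 5 (0.052 and 0.053).

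With DE-71, Msmo1 stood at 10.24, 9.65, 9.74, 9.76 and 10.19 in the controls, 11.17, 10.82, 10.55 and 10.19 at 15 mg/kg, and 10.03, 10.42, 10.31 and 11.18 at 50 mg/kg. Both doses overlapped the controls, and the differences of 0.76 and 0.57 were not called. In PCB126 the Msmo1 group means ran 10.52, 10.4, 9.97 and 10.37 from 0 to 250 mg/kg.

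Sc5d, encoding the sterol desaturase that makes the substrate of the Dhcr7 reductase, rose by a smaller and more even amount. It stood at 10.39, 10.79, 10.92, 10.96 and 10.8 in phenobarbital controls, 11.5, 11.5, 11.11, 11.61 and 11.44 at 5 mg/kg, and 11.37, 11.6, 11.64, 11.5 and 11.14 at 45 mg/kg. No dosed rat overlapped a control, and both doses gave nearly the same rise, 0.66 (SE 0.13, adjusted p = 0.0097) and 0.67 (SE 0.13, adjusted p = 0.00054). Its other 2 probe sets moved by 0.75 and 0.6 at 5 mg/kg and by 0.8 and 0.56 at 45 mg/kg.

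The Sc5d call at 45 mg/kg was kept in all 10 fits with 1 sample left out. The call at 5 mg/kg was not kept without control replicate 1 (0.56, adjusted p = 0.13) or 5 mg/kg replicate 2 or 4 (0.058 and 0.068).

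With PBDE-47, Sc5d stood at 10.96, 11.07, 10.99 and 10.95 in the controls, 11.29, 11.37, 11.65, 11.28 and 11.43 at 15 mg/kg, and 11.62, 11.41, 11.47, 11.55 and 11.68 at 50 mg/kg. Neither dose overlapped the controls. Sc5d rose by 0.55 at 50 mg/kg (SE 0.14, adjusted p = 0.0099), and by 0.57 without the near-identical arrays (adjusted p = 0.016). The 0.41 at 15 mg/kg (interval 0.14 to 0.69) was not called. With DE-71 the Sc5d differences were 0.27, 0.22 and 0.21 at the 3 doses, with overlap and no call. Its other 2 probe sets were not in step there, at 0.4, 0.65 and 0.51 for 1 and 0.2, 0.25 and 0.04 for the other. In the same order these probe sets moved by 0.73 and 0.51 with PBDE-47 at 50 mg/kg.

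The other 6 genes of the last stage were not called in any dose comparison. At 5 mg/kg of phenobarbital the sterol reductase gene Tm7sf2 differed by 1.29, Cyp51, the lanosterol demethylase gene, by 1.15, Dhcr7, whose product makes cholesterol itself, by 1.04, the ketoreductase gene Hsd17b7 by 0.96, the sterol isomerase gene Ebp by 0.51 and the dehydrogenase gene Nsdhl by 0.2. Without 5 mg/kg replicate 3, Cyp51 was called (1.31, adjusted p = 0.032), and 9 of the 27 genes rose in that fit. With PCB126 at 50 mg/kg Dhcr7 differed by -0.86 (interval -1.39 to -0.33), Tm7sf2 by -0.83 and Hsd17b7 by -0.7, not called.

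**Figure D3:**
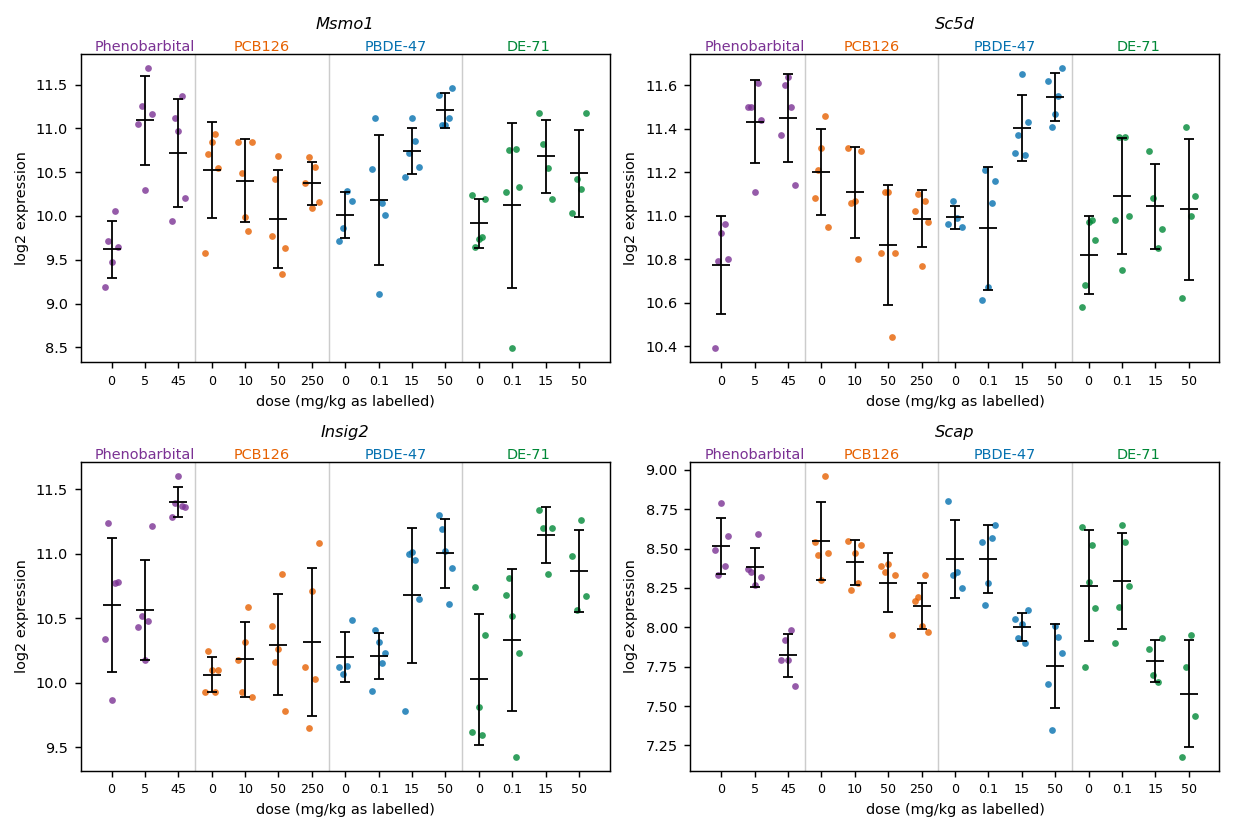
The log2 expression of Msmo1, Sc5d, Insig2 and Scap is plotted against dose in mg/kg as labelled for each agent, with each panel on its own vertical scale. Points are samples, the long bar is the group mean and the whiskers are 1 SD. At 45 mg/kg of phenobarbital and 50 mg/kg of PBDE-47 no Sc5d, Insig2 or Scap point overlaps its controls.

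In the control circuit, Insig2 rose and Scap fell at the highest doses of phenobarbital, PBDE-47 and DE-71. INSIG2 is the membrane anchor, known to be made from alternative promoters in liver, and SCAP is the escort it retains. Insig2 stood at 10.34, 11.24, 9.87, 10.77 and 10.78 in phenobarbital controls, 10.43, 10.52, 10.18, 10.48 and 11.21 at 5 mg/kg, and 11.28, 11.39, 11.6, 11.37 and 11.36 at 45 mg/kg. The 45 mg/kg rats lay close together just above the highest control. The rise was 0.8 at 45 mg/kg (SE 0.23, adjusted p = 0.044), while 5 mg/kg gave -0.04.

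Of the 10 fits with 1 sample left out, the Insig2 call at 45 mg/kg was kept only without control replicate 2. Without control replicate 1, 3, 4 or 5 its adjusted p was 0.13, 0.22, 0.051 and 0.055, and without 45 mg/kg replicates 1 to 5 it was 0.067, 0.085, 0.11, 0.071 and 0.08. It was also lost with trended and robust moderation (0.05). With the mean over both Insig2 probe sets the difference was 0.6 (adjusted p = 0.099), and the other probe set alone moved by 0.4.

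With PBDE-47, Insig2 stood at 10.12, 10.07, 10.13 and 10.49 in the controls, 9.78, 11.0, 11.01, 10.95 and 10.65 at 15 mg/kg, and 11.3, 11.19, 11.02, 10.61 and 10.89 at 50 mg/kg. At 15 mg/kg replicate 1 lay below all controls and the other 4 rats above them. At 50 mg/kg all rats lay above the controls, and the rise was 0.8 (SE 0.25, adjusted p = 0.0498). Without the near-identical arrays the value was 0.8 with an adjusted p of 0.085, and the call was also not kept without control replicate 1, 2 or 3 and 4 (0.12, 0.13 and 0.13) or 50 mg/kg replicate 1, 2, 3 or 5 (0.13, 0.11, 0.084 and 0.067). It was lost too with repeated quantile normalization (0.77, adjusted p = 0.056) and with trended and robust moderation (0.055).

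With DE-71, Insig2 stood at 9.62, 10.74, 9.81, 9.6 and 10.37 in the controls, 11.34, 11.2, 10.84 and 11.2 at 15 mg/kg, and 10.98, 10.56, 11.26 and 10.67 at 50 mg/kg. All rats at 15 mg/kg lay above every control, and at 50 mg/kg 2 of 4 did. Insig2 rose 2.16-fold at 15 mg/kg (1.11, SE 0.25, adjusted p = 0.0065) and 1.79-fold at 50 mg/kg (0.84, SE 0.25, adjusted p = 0.02). The 15 mg/kg call was kept in all 9 fits with 1 sample left out and without the near-identical arrays (1.1, adjusted p = 0.025), but not with only the DE-71 arrays in the fit (0.1).

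The Insig2 call at 50 mg/kg of DE-71 was not kept without the near-identical arrays (0.71, adjusted p = 0.076), without control replicate 1 or 4 (0.064 and 0.062), or without 50 mg/kg replicate 2 or 4 (0.1 and 0.068), nor with only the DE-71 arrays in the fit (0.1). The other Insig2 probe set moved by 0.74 with PBDE-47 at 50 mg/kg, and by 0.76 and 0.47 with DE-71 at 15 and 50 mg/kg.

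Scap stood at 8.49, 8.33, 8.79, 8.39 and 8.58 in phenobarbital controls, 8.37, 8.35, 8.27, 8.59 and 8.32 at 5 mg/kg, and 7.79, 7.92, 7.79, 7.98 and 7.63 at 45 mg/kg. The 45 mg/kg rats lay below both other groups. Scap fell by 0.7 at 45 mg/kg (log2 -0.7, SE 0.14, adjusted p = 0.00056), a 1.62-fold decrease, and 45 against 5 mg/kg gave -0.56 (SE 0.14, adjusted p = 0.023). That step was the only one called among the 27 genes between these doses (0.682% of all genes called), and it was not kept without 5 mg/kg replicate 1 or 4 (0.054 and 0.12) or 45 mg/kg replicate 1 or 5 (0.067 and 0.12).

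With PBDE-47, Scap stood at 8.8, 8.33, 8.35 and 8.25 in the controls, 8.05, 7.93, 8.02, 7.9 and 8.11 at 15 mg/kg, and 7.64, 7.35, 8.01, 7.94 and 7.84 at 50 mg/kg. Both doses lay wholly below the controls. Scap fell at 50 mg/kg (-0.67, SE 0.15, adjusted p = 0.0017), and gave -0.43 at 15 mg/kg (interval -0.72 to -0.14), not called.

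With DE-71, Scap stood at 8.64, 7.75, 8.29, 8.52 and 8.12 in the controls, 7.86, 7.7, 7.65 and 7.93 at 15 mg/kg, and 7.18, 7.75, 7.95 and 7.44 at 50 mg/kg. Control replicate 2 lay within the range of the dosed rats. Scap fell at 50 mg/kg (-0.68, SE 0.15, adjusted p = 0.00089). At 15 mg/kg the difference was -0.48 (adjusted p = 0.093), and -0.61 (adjusted p = 0.013) without control replicate 2.

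The Scap falls at 45 mg/kg of phenobarbital and at 50 mg/kg of PBDE-47 and DE-71 were kept in every fit with 1 sample left out. Without the near-identical arrays Scap gave -0.74 (adjusted p = 0.00094) with PBDE-47 and -0.81 (adjusted p = 0.00016) with DE-71 at 50 mg/kg. With only the DE-71 arrays in the fit the adjusted p was 0.061. A second and much dimmer Scap probe set moved by -0.06, -0.17 and -0.03 in these comparisons, so the fall was seen by 1 of the 2 probe sets. With the mean over both, Scap gave -0.38, -0.42 and -0.36 and was still called (adjusted p = 0.0079, 0.0035 and 0.011). In PCB126 the Scap means were 8.55 ± 0.24, 8.41 ± 0.14, 8.28 ± 0.19 and 8.13 ± 0.14 from 0 to 250 mg/kg, and the 250 mg/kg difference of -0.41 (interval -0.69 to -0.14) was not called.

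Insig1 and Srebf2 were not called in any dose comparison. Insig1, itself a target of SREBP2, differed by 0.82 at 5 mg/kg of phenobarbital (interval 0.08 to 1.56, adjusted p = 0.719) and by -0.06 at 45 mg/kg. Its control rats stood at 9.98 ± 0.35 and the dosed rats at 10.8 ± 0.68 and 9.93 ± 0.42. Srebf2, which encodes SREBP2, lay between -0.38 (DE-71 at 50 mg/kg) and 0.1 (phenobarbital at 5 mg/kg).

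Among the genes of uptake, transport and esterification, Scarb1 fell at the top doses of phenobarbital and PBDE-47. It encodes SR-BI, the receptor that takes cholesteryl esters from HDL into hepatocytes. It stood at 9.35, 9.01, 9.26, 9.04 and 9.4 in phenobarbital controls and 8.55, 8.43, 8.7, 8.65 and 8.67 at 45 mg/kg. With PBDE-47 it stood at 9.25, 9.27, 9.3 and 9.16 in the controls and 8.48, 8.17, 8.85, 8.88 and 8.63 at 50 mg/kg. In both agents every dosed rat lay below every control.

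The Scarb1 fall was -0.61 with phenobarbital (SE 0.13, adjusted p = 0.0025) and -0.64 with PBDE-47 (SE 0.14, adjusted p = 0.0023), and both calls were kept in every fit with 1 sample left out. Without the near-identical array the PBDE-47 value was -0.7 (adjusted p = 0.0014). Its other probe set moved by -0.29 and -0.32. With the mean over both probe sets the Scarb1 differences were -0.45 and -0.48 and were not called (adjusted p = 0.21 and 0.15). With DE-71 at 50 mg/kg Scarb1 gave -0.25 (interval -0.53 to 0.03).

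Lcat, the plasma enzyme that esterifies cholesterol on HDL, fell by the smallest amount of any called gene. It stood at 12.16 ± 0.04 in phenobarbital controls, 11.97 ± 0.06 at 5 mg/kg and 11.84 ± 0.1 at 45 mg/kg, and neither dose overlapped the controls. The 45 mg/kg fall was -0.32 (SE 0.08, adjusted p = 0.01) and was kept in all 10 fits with 1 sample left out. With PBDE-47 at 50 mg/kg Lcat gave -0.27 (adjusted p = 0.054) and Npc2, which carries cholesterol out of lysosomes, -0.3 (adjusted p = 0.06), both without overlap and not called.

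Stard4, a cytosolic sterol carrier, differed by 0.41 and 0.47 at 5 and 45 mg/kg of phenobarbital (intervals 0.1 to 0.71 and 0.16 to 0.77) and was not called. Soat1, which esterifies cholesterol inside cells, lay between -0.05 and 0.17 in all 11 dose comparisons. Its signal was dim (mean log2 3.91, above 18.7% of genes), so small differences there say little of the gene. In bulk liver fewer cells of a type and less RNA per cell cannot be told apart.

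PBDE-47 and DE-71 were given at the same doses and on the same schedule, so their responses were compared at each dose. The DE-71 response minus the PBDE-47 response was called for 0 of 27 genes by limma at 0.1, 15 and 50 mg/kg, against 0.0%, 0.0141% and 0.12% of all genes. At an unadjusted p below 0.05 there were 0, 0 and 4 members, against 4.53%, 5.11% and 11.4% of all genes. At 50 mg/kg 14 of the 17 enzymes had a lower response to DE-71 and 3 a higher one, where 7572 of all 14217 genes had a higher one. The difference was -0.78 for Hsd17b7 (interval -1.49 to -0.06, adjusted p = 0.398), -0.71 for Lss (-1.4 to -0.01) and -0.42 for Nsdhl (-0.81 to -0.03). It was -0.63 for Msmo1 (-1.55 to 0.29) and 0.39 for Npc2 (0.12 to 0.67). The other Lss probe set moved by 0.28 with PBDE-47 and 0.32 with DE-71, where the chosen set moved by 0.6 and -0.1. The Lss difference was thus seen by 1 of its 2 probe sets. For Hsd17b7 the other probe set moved by 0.27 and 0.12, against 0.31 and -0.47. That of Nsdhl moved by 0.13 and -0.15.

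For Insig2 the difference at 50 mg/kg was 0.04 (interval -0.66 to 0.74) and at 15 mg/kg 0.64 (-0.06 to 1.34). For Scap it was -0.01 (-0.42 to 0.4) at 50 mg/kg, and for Scarb1 0.39 (-0.01 to 0.79). These intervals are wide, and the lack of calls does not show that the agents act alike. Between 15 and 50 mg/kg limma called 0 of 27 genes for PBDE-47 (0.0% of all genes), with 1 at an unadjusted p below 0.05 (3.0% of all genes), and 0 for DE-71 (0.197% of all genes), with 0 at an unadjusted p below 0.05 (13.7% of all genes). Without the near-identical arrays the mean over the 27 genes differed between 50 and 15 mg/kg by 0.21 with PBDE-47 and by -0.08 with DE-71.

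Within groups the enzymes varied together from rat to rat. After each group mean was subtracted, the correlation of an enzyme with the mean of the other enzymes over the 72 samples ran from 0.73 for Sc5d to 0.96 for Acat2. Over the 136 pairs of enzymes Pearson's r ran from 0.48 to 0.92 with a median of 0.78. The points share arrays, agent and handling, so this describes co-variation among these samples. The synthesis mean had an SD of 0.36 within groups.

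Of the regulators and transport genes, Insig1 correlated with the enzyme mean at 0.59 and Stard4 at 0.48, while Srebf2 stood at 0.28, Scap at 0.2, Insig2 at -0.21, Ggps1 at -0.16 and Scarb1 at -0.42. Srebf2 and Scap correlated with each other at 0.77, and Insig2 and Scap at -0.48.

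**Figure D4:**
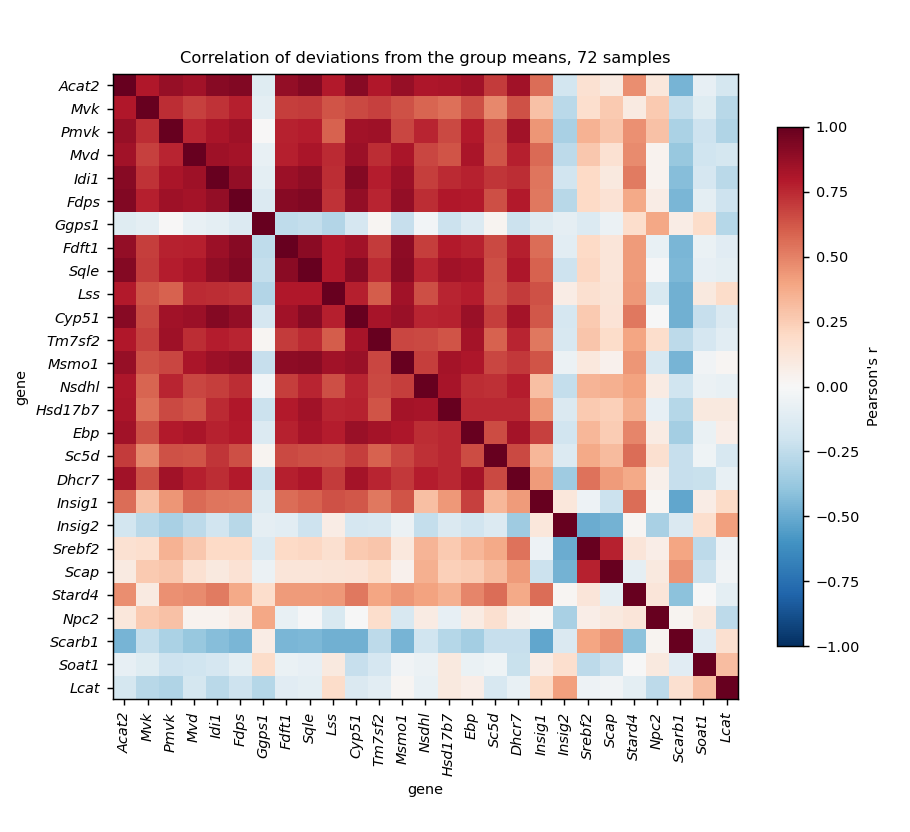
Pearson correlation between each pair of the 27 genes over 72 samples, after subtraction of each group mean, is coloured from -1 (blue) to 1 (red), with genes in the same order of roles on both axes. The enzymes form a red block with pair values from 0.48 to 0.92, from which Ggps1 stands apart, and Srebf2 with Scap forms a small block of its own at 0.77.

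The genes outside the list most like the enzyme mean were Acss2, an acetyl-CoA synthetase gene (r = 0.93), Fasn, encoding fatty acid synthase (0.84), the ATP citrate lyase gene Acly (0.83), the sterol-regulated gene Tmem97 (0.8), the elongase gene Elovl6 (0.79), the retinol dehydrogenase gene Rdh11 (0.77), and Acsl3 and the desaturase gene Fads1 (both 0.74). The median over all genes was -0.02. The mean of 13 measured fatty acid synthesis genes correlated with the enzyme mean at 0.8 (single genes from 0.29 to 0.84), that of 14 circadian clock genes at -0.45 (single genes from -0.49 to 0.31, median -0.12) and that of 11 hepatocyte markers at 0.0.

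Of 35 other genes of sterol handling, 30 were measured and 15 were called in at least 1 dose comparison, against 13.2% of all genes. Abcg8 and Abcg5, whose products together export sterols into bile, fell with PBDE-47 at 50 mg/kg (log2 -2.94 and -2.66), with DE-71 at 50 mg/kg (-1.81 and -1.61) and with phenobarbital at 45 mg/kg (-1.63 and -1.42). They also fell with PBDE-47 at 15 mg/kg (-2.36 and -1.79). The sterol-binding protein gene Pgrmc1 rose at both doses of phenobarbital (0.36 and 0.48), with PBDE-47 at 50 mg/kg (0.36) and with DE-71 at 15 and 50 mg/kg (0.36 and 0.46). Rnf139, a ubiquitin ligase gene of the endoplasmic reticulum membrane, rose at 45 mg/kg of phenobarbital (0.54).

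The bile acid synthesis genes Cyp7a1 (-2.31), Cyp8b1 (-1.88) and Cyp27a1 (-0.43) fell at 45 mg/kg of phenobarbital, as did Srebf1, which encodes the fatty acid counterpart of SREBP2 (-0.87), and the hepatic lipase gene Lipc (-0.5). Srebf1 also fell with DE-71 at 50 mg/kg (-1.01), and Lipc with PBDE-47 and DE-71 at 50 mg/kg (-0.46 and -0.5). Pltp, the phospholipid transfer protein gene, fell with PBDE-47 at 15 and 50 mg/kg (-0.76 and -1.2). In all, with phenobarbital at 45 mg/kg 3 of the 30 rose and 7 fell, 1 and 4 with PBDE-47 at 50 mg/kg, and 3 and 6 with DE-71 at 50 mg/kg. Of all genes 1.38% rose and 1.32% fell, 2.35% rose and 1.68% fell, and 4.83% rose and 5.35% fell in the same comparisons. The medians of the 30 were -0.09, 0.02 and -0.06, against -0.02, -0.02 and 0.0 over all genes.

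Marker genes of hepatocytes and other liver cells were read beside these results. Hepatocyte markers had a median of -0.06 with PBDE-47 at 50 mg/kg and -0.07 at 45 mg/kg of phenobarbital, with 0 of 11 called. With DE-71 at 50 mg/kg 2 of 11 hepatocyte markers and 1 of 6 endothelial markers fell, and of 9 stellate cell markers 2 rose and 2 fell. Of 5 cholangiocyte markers 1 rose at 45 mg/kg of phenobarbital (0.74), at 15 and 50 mg/kg of PBDE-47 (0.91 and 1.35) and at 15 and 50 mg/kg of DE-71 (0.99 and 1.28), while the medians of the 5 lay between -0.07 and 0.21. Their part in the results above was not tested.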

How the data were processed

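Liver RNA of 74 rats was measured on arrays of 31099 probe sets. The values are log2 expression deposited by the authors as a table, made with RMA per the submitters' processing notes (version and the arrays summarised together are not given in the sources used here). Value distributions look normalized separately by agent, so levels are compared only within an agent. Between PBDE-47 and DE-71 only the differences from each agent's own controls are compared. Control probe sets and probe sets with no or several gene symbols were left out, which leaves 14217 genes with the brightest probe set each. Near-identical arrays of a group (root mean square difference under 0.3) were averaged, giving 72 samples. All genes were fitted with limma 3.58.1 (R 4.3.3) in 1 model over 15 groups with 57 residual degrees of freedom, with Benjamini-Hochberg adjustment over all genes and 95% confidence intervals. Tables were made with Python 3.11.15 and pandas 2.3.3, and the fit was tested on simulated data.

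Named were all measured members, by role. Of the other sterol genes called in at least 1 dose, the 10 with the smallest adjusted p were named, as were the 8 non-members most correlated with the enzyme mean. Members and lists were chosen with earlier results of these data known. Replicate numbers were not used as pairs in the main fit, and the labels do not say whether they pair the samples. PCB126 doses carry the labelled unit, which could not be checked, and the number of arrays limits the precision. Promoters are RefSeq sequences of GRCr8. Alternatives varied array averaging, arrays fitted, normalization, probe set choice, a filter on dim probe sets, variance moderation, a replicate block and each sample in turn.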

Additional observations from a re-analysis of the deposited data

Results flagged for a closer look

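In each group of 4 or 5 samples the highest and lowest sample were compared with the rest, for the module mean and for the 7 genes called in any comparison. Of 120 such groups 8 held a sample that stood apart, where chance gives about 1 in 20. Msmo1 was low in PCB126 replicate 1 at 0 mg/kg (9.58 against a group median of 10.71) and in DE-71 replicate 3 at 0.1 mg/kg (8.49 against 10.33). The module mean was low in DE-71 control replicate 2 (8.62 against 8.99). Insig2 was high in PBDE-47 control replicate 5 (10.49 against 10.12), and Scarb1 in DE-71 control replicate 4 (9.22 against 8.91). Scap was low in PCB126 replicate 4 at 50 mg/kg (7.95 against 8.35). Lcat was low in PCB126 replicate 5 at 50 mg/kg (11.79 against 12.14) and high in replicate 5 at 250 mg/kg (12.31 against 12.08).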

How the results depend on the processing

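No called gene changed sign. All 290 recomputed differences of the mean over the 27 genes shifted by less than 1 SD of the replicates (0.24). That limit is larger than many of the differences themselves, so it says little about their stability. Of the 290, 6 in 3 comparisons changed sign. PBDE-47 at 0.1 mg/kg went from 0.05 to -0.04 without replicate 2. DE-71 at 50 against 15 mg/kg went from -0.06 to 0.02 without 15 mg/kg replicates 1 and 2 or 50 mg/kg replicate 2, and to 0.01 without 50 mg/kg replicate 4. The DE-71 minus PBDE-47 response at 15 mg/kg went from 0.05 to -0.03 without DE-71 control replicate 2 and to -0.04 without DE-71 replicates 1 and 2. Of 238 recomputed values for the comparisons without a sample left out, 229 stayed within 1 SD or within 1.5 times the count. These include counts of 0 that stayed at 0. The count of called members at PBDE-47 50 mg/kg went from 5 to 8 with all 74 arrays taken separately, to 8 with the filter on dim probe sets and to 9 with only that agent's arrays. At DE-71 15 mg/kg it went from 1 to 2 with all 74 arrays, to 2 with the replicate block and to 0 with only that agent's arrays. At DE-71 50 mg/kg it went from 2 to 0 with only that agent's arrays and to 1 without the arrays near-identical to another group. Between phenobarbital 45 and 5 mg/kg it went from 1 to 2 with only that agent's arrays. The cause was not tested. With 1 sample left out the counts ran from 0 to 9 at phenobarbital 5 mg/kg, 4 to 5 at phenobarbital 45 mg/kg and 3 to 5 at PBDE-47 50 mg/kg. They ran from 1 to 2 at each of DE-71 15 and 50 mg/kg, and from 0 to 2 between the phenobarbital doses. Under the replicate block the adjusted p of Idi1 at phenobarbital 5 mg/kg was 0.052 and that of Scap at DE-71 15 mg/kg was 0.019. The labels do not say whether replicate numbers pair the samples. Of same-number pairs 3 of 15 correlated above 0.1 for phenobarbital, 14 of 30 for PCB126, 7 of 30 for PBDE-47 and 9 of 27 for DE-71. Their median r was 0.0, 0.07, -0.01 and 0.05 in that order, against 0.0, -0.0, -0.01 and -0.01 for pairs of other numbers. Pairs of other numbers above 0.1 were not counted, so these values do not settle the pairing.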
